A study of Mus musculus with 6 samples.

Results

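The mouse Hox genes encode homeodomain transcription factors and lie in 4 clusters, HoxA on chromosome 6, HoxB on chromosome 11, HoxC on chromosome 15 and HoxD on chromosome 2. A list of 38 Hox genes was looked up by symbol through the RefSeq identifiers of the deposited table, and all 38 were found, each as 1 of its 23290 entries. Expression had been measured by RNA sequencing of mouse hearts at E10.5, the stage at which the looped heart tube is forming chambers. The mutant hearts were Nkx2-5Cre/+,Casz1f/f, with both alleles of the zinc finger gene Casz1 floxed and Cre recombinase at 1 allele of Nkx2-5, a cardiac homeodomain gene (3 hearts). The controls were Nkx2-5+/+,Casz1f/+, with 1 floxed Casz1 allele and no Cre (3 hearts), and both groups were of C57BL/6 background. Each heart came from its own embryo, per the labels' protocols. Cre is driven from the Nkx2-5 locus, so cells that never expressed Nkx2-5 keep Casz1, and the mutants also differ from the controls at Nkx2-5 itself. Which exons were floxed is not stated in the labels.

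Hox genes are numbered by paralog group, from 1 at the 3′ end of a cluster to 13 at the 5′ end. Low numbers are expressed far forward in the embryo, beginning in the hindbrain, pharyngeal arches and foregut region, and higher numbers begin successively further back, an order known as spatial collinearity. Anterior Hox genes respond to retinoic acid, and in mouse some of them mark progenitors in the posterior part of the second heart field, which adds cells to both poles of the heart. Hox proteins bind DNA together with TALE homeodomain cofactors of the PBX, MEIS and PREP families.

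All levels are FPKM, fragments scaled to transcript length and to the size of the library, and the table holds 1 pooled value per genotype and none per heart. The spread between hearts and the read depth are therefore unknown, and it cannot be seen whether 1 heart carries a difference. Every FPKM, p and q comes from the authors' deposited table. A gene is called when the q of the authors' Cuffdiff test is under 0.05. Log2 fold changes are mutant over control, and their standard error (SE) was derived from the deposited test statistic. In such pooled tissue, more cells of a type and more RNA per cell cannot be told apart. Casz1 itself read 4.68 FPKM in mutant and 6.61 FPKM in control hearts (log2 -0.50, SE 0.306, q = 1.00). Nkx2-5 read 82.9 FPKM in mutant and 143 FPKM in control hearts (log2 -0.79, SE 0.295, q = 0.536). The cardiac label fits the marker genes: the 12 cardiomyocyte markers summed to 21916 FPKM in mutant and 21656 FPKM in control hearts, with none at 0.

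The 250 bases before a RefSeq transcript start, the one at or next to the start of the deposited locus, are shown for 4 genes. The RefSeq gene span of Hoxb1 and of Hoxb8 begins earlier, so the Hoxb1 window overlaps that span and the Hoxb8 window lies inside it. Hoxa2 is the gene that passed the authors' test. Hoxb1, Hoxb4 and Hoxb8 share a cluster and did not pass. Mutant values were higher for Hoxb1 and Hoxb4 and lower for Hoxb8. Capitals mark matches, on either strand, to a PBX-HOX site (TGATNNAT), a MEIS site (TGACAG) or a retinoic acid receptor half-site (AGGTCA). The sequences are from RefSeq, build GRCm38 (mm10).
Hoxa2, chr6:52164832-52165081, minus strand: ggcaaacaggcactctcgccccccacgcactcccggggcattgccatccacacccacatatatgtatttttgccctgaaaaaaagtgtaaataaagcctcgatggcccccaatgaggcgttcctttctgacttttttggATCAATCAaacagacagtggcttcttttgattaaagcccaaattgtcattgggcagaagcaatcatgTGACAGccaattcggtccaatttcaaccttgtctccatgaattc
Hoxb1, chr11:96365508-96365757, plus strand: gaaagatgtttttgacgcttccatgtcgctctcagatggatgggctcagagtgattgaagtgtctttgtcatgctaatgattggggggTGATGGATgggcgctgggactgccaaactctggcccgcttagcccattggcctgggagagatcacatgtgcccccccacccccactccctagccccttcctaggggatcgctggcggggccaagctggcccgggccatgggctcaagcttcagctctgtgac
Hoxb4, chr11:96318017-96318266, plus strand: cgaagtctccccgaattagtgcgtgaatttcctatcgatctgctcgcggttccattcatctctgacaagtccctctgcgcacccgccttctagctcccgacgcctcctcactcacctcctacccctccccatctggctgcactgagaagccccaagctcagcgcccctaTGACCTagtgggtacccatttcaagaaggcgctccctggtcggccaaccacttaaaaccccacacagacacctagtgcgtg
Hoxb8, chr11:96281655-96281904, plus strand: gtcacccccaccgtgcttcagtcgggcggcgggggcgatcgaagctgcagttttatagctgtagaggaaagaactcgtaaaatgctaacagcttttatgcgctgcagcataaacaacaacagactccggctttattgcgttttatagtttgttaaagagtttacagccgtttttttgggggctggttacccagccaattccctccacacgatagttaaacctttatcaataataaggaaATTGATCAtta
The Hoxa2 window held a PBX-HOX match that starts 111 bases before that start and a MEIS match that starts 44 bases before it. In the Hoxb1 window a PBX-HOX match began 162 bases before the start, and in the Hoxb8 window another began 11 bases before it. The Hoxb4 window held 1 receptor half-site. Windows of 300 bases, including 50 after the start, were given for 22 of the 38 genes. Hoxb2, Hoxb3, Hoxb9 and Hoxc8 were among the genes without one. PBX-HOX matches lay in 3 of the 22 (13.6%), those of Hoxa2, Hoxb1 and Hoxb8 shown above, against 8.86% of all 32817 mouse windows. MEIS matches lay in 2 (9.09%, against 19.2% of all), and the receptor half-site in 7 (31.8%, against 16.3%). A direct repeat of that half-site with a spacer of 5 bases was in 0 of the 22 and in 3 of all windows. These are letter matches in a short window and not shown to be bound.

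Hox expression in the heart was low and concentrated at the 3′ ends of HoxA and HoxB. Summed over the 38 genes it came to 23.3 FPKM in mutant and 12.2 FPKM in control hearts, a ratio of 1.91. Hoxb2 and Hoxb3 alone gave 48.8% of that sum in mutant hearts and 52.4% in control hearts. At least 1 FPKM was reached by 7 genes in mutant hearts, Hoxa2 to Hoxa5 and Hoxb2 to Hoxb4, and by 2 in control hearts, Hoxb2 and Hoxb3. Even Hoxb2, the highest, stood above 50.8% of tested entries in mutant hearts and above 39.3% in control hearts.

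The 4 clusters contributed unequally. HoxA summed to 7.23 FPKM in mutant and 2.29 FPKM in control hearts, a ratio of 3.16. HoxB summed to 14.0 FPKM in mutant and 8.70 FPKM in control hearts, a ratio of 1.61. HoxC stood at 1.36 FPKM in mutant and 0.712 FPKM in control hearts, and HoxD at 0.671 FPKM in mutant and 0.513 FPKM in control hearts. HoxA thus made up 31.1% of all Hox FPKM in mutant hearts and 18.7% in control hearts. These sums have no error, since no value per heart was available.

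**Figure D1:**
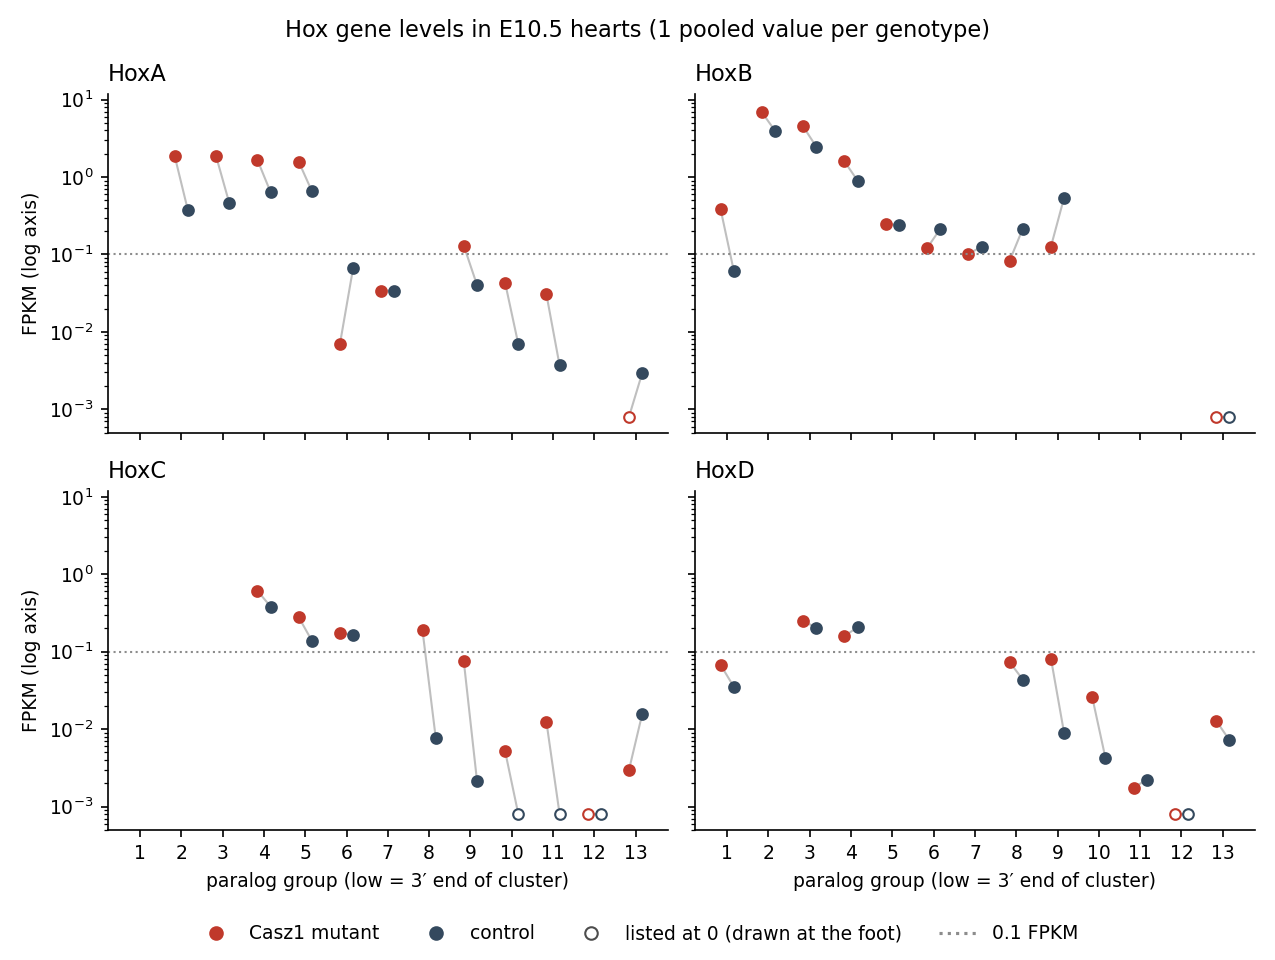
FPKM (log axis) of the 38 Hox genes by paralog group in each of the 4 clusters, with red points for the pooled Casz1 mutant hearts, dark points for the pooled control hearts, grey lines joining the same gene and open points for values listed at 0. The 3′ genes of HoxA and HoxB carry most of the expression, and HoxB reads higher in mutant hearts at groups 1 to 4 and lower there at groups 6 to 9.

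Of the 38 genes, 20 were tested by the authors and 18 were marked as too low. Among the 20, 1 rose and 0 fell at q under 0.05, against 0.305% of the 15387 tested entries that rose and 0.117% that fell. At an unadjusted p under 0.05, 6 were higher and 1 was lower in mutant hearts, where 1.99% of all tested entries were higher and 1.18% lower. At q under 0.10, 3 were higher and 0 lower, against 0.377% and 0.169% of tested entries. Of the 20, 15 lay above 0 (75.0%, against 45.3% of tested entries with a finite fold), and their median log2 fold change was 0.81 beside -0.02 for those entries. A gene was tested once it passed about 0.1 FPKM in either genotype, and 4 of the 20 stood at or under that level in 1 genotype: Hoxa9, Hoxb1 and Hoxc8 in control and Hoxb8 in mutant hearts. Such genes could hardly be tested without differing, so these counts describe the genes and are no test of them.

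In HoxA, Hoxa2 rose and its 3′ neighbours had values in the same direction. Hoxa2, which sets the identity of the second pharyngeal arch, stood at 1.85 FPKM in mutant and 0.370 FPKM in control hearts. Its level was 5.01-fold higher in mutant hearts (log2 2.32, SE 0.602, 95% interval 1.14 to 3.50, q = 0.0304 by the authors' Cuffdiff test). Adding 1 FPKM to both genotypes brought the log2 value to 1.06. The gene lies on chromosome 6 from 52162417 to 52164831 in mm10.

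Hoxa3, needed for the third arch, thymus and parathyroid, read 1.87 FPKM in mutant and 0.463 FPKM in control hearts (log2 2.01, SE 0.658), with an unadjusted p of 0.00219 and q = 0.244 in the authors' deposited table. Hoxa4, a gene of cervical level, read 1.68 FPKM in mutant and 0.641 FPKM in control hearts (log2 1.39, SE 0.838, q = 1.00). Hoxa5, which acts in lung and trachea development, read 1.59 FPKM in mutant and 0.660 FPKM in control hearts (log2 1.27, SE 0.754, q = 1.00). The 4 genes Hoxa2 to Hoxa5 thus lay within a narrow band in each genotype, and the mutant value of each exceeded its control value. None of Hoxa3 to Hoxa5 passed the adjusted threshold.

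The deposited table places Hoxa3, Hoxa4, Hoxa5 and Hoxa6 at a single locus, on chromosome 6 from 52169062 to 52213597. The RefSeq span of Hoxa3 covers those of Hoxa4 to Hoxa6. None of them shares exon bases with another of the listed Hox genes in GENCODE. How the authors' counting assigned fragments within this locus is not stated, so it is unknown whether their values depend on each other. In the GENCODE annotation 25.4% of the Hoxa3 exon bases are also covered by antisense genes, and the labels do not say whether the counting used strand. Hoxa2 has a locus of its own, with 0% of its exon bases under an antisense gene and 15.0% shared with a same-strand model.

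The 5′ part of HoxA was close to silent. Hoxa9, a posterior gene also active in blood progenitors, read 0.130 FPKM in mutant and 0.0404 FPKM in control hearts (log2 1.69, SE 1.06, q = 1.00). Hoxa6, Hoxa7, Hoxa10, Hoxa11 and Hoxa13 were not tested. Each stood at no more than 0.0668 FPKM in both genotypes, and Hoxa13 was listed at 0 in mutant hearts.

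HoxB held the widest span of differences, with higher mutant values at its 3′ end and lower ones toward its 5′ end. Hoxb1, the gene of hindbrain rhombomere 4, read 0.384 FPKM in mutant and 0.0615 FPKM in control hearts, a level 6.24-fold higher in mutant hearts. This is 2.64 on the log2 scale (SE 0.758, 95% interval 1.16 to 4.13, unadjusted p = 0.000488), and q was 0.0905 by the authors' Cuffdiff test, above the threshold. Hoxb1 stood 4th in its cluster in mutant hearts and 9th in control hearts. Adding 0.1 or 1 FPKM to both genotypes brought its log2 value to 1.58 or 0.38.

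Hoxb2, a hindbrain and arch gene, was the highest Hox gene in both genotypes, at 6.86 FPKM in mutant and 3.95 FPKM in control hearts (log2 0.80, SE 0.402), with an unadjusted p of 0.0476 and q = 1.00 in the authors' deposited table. Hoxb3, of hindbrain and pharyngeal level, followed at 4.50 FPKM in mutant and 2.45 FPKM in control hearts (log2 0.87, SE 0.431), with an unadjusted p of 0.0427 and q = 1.00 in the authors' deposited table. Hoxb4, expressed from the lower hindbrain backward, read 1.59 FPKM in mutant and 0.895 FPKM in control hearts (log2 0.83, SE 0.501, q = 1.00). These 3 genes kept their order in both genotypes. Antisense exons of Hoxb3os cover 52.9% of the Hoxb3 exon bases and 27.3% of those of Hoxb2 in GENCODE, so reads of the strands cannot be told apart there unless the counting used strand.

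Hoxb5 to Hoxb8, genes of cervical to thoracic level, had values near or below those of control hearts. Hoxb5 read 0.251 FPKM in mutant and 0.240 FPKM in control hearts (log2 0.06, SE 0.686). Hoxb6 read 0.121 FPKM in mutant and 0.214 FPKM in control hearts, and Hoxb7 read 0.102 FPKM in mutant and 0.125 FPKM in control hearts. Hoxb8, known in mouse for a role in grooming behaviour, read 0.0830 FPKM in mutant and 0.216 FPKM in control hearts (log2 -1.38, SE 0.818). The intervals of all 4 genes included 0.

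Hoxb9, the 5′-most gene of the contiguous part of the cluster and a gene of thoracic level, read 0.126 FPKM in mutant and 0.544 FPKM in control hearts. Its level was 4.31-fold lower in mutant hearts (log2 -2.11, SE 0.755, 95% interval -3.59 to -0.63, unadjusted p = 0.00524), and q was 0.411 by the authors' Cuffdiff test. Adding 0.1 or 1 FPKM to both genotypes brought its log2 value to -1.51 or -0.46. Hoxb9 was 4th in the cluster in control hearts, the place that Hoxb1 took in mutant hearts. Summed over Hoxb5 to Hoxb9, HoxB came to 0.682 FPKM in mutant and 1.34 FPKM in control hearts, whereas Hoxb1 to Hoxb4 came to 13.3 FPKM in mutant and 7.36 FPKM in control hearts.

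Across the 9 tested HoxB genes, paralog number and log2 fold change had a Pearson r of -0.95 and a Spearman rho of -0.93. For the 11 tested genes of the other clusters the Pearson r was 0.35 and the Spearman rho 0.023. Over all 20 tested genes the Pearson r was -0.31 and the Spearman rho -0.40. These are descriptions over genes of the same pooled libraries, with low levels at the 5′ end and at Hoxb1, and carry no p. Hoxb1 in control and Hoxb8 in mutant hearts stood under 0.1 FPKM, so both could hardly be tested without differing. Hoxb13, set apart from the rest of the cluster, was listed at 0 in both genotypes. None of the 9 has an adjusted p under 0.05, so the order, which is not strict, rests on single values that did not pass. With 1 FPKM added to both genotypes, Hoxb1 (log2 0.38) lay below Hoxb2 and Hoxb3 (0.67 each) and Hoxb4 (0.45).

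**Figure D2:**
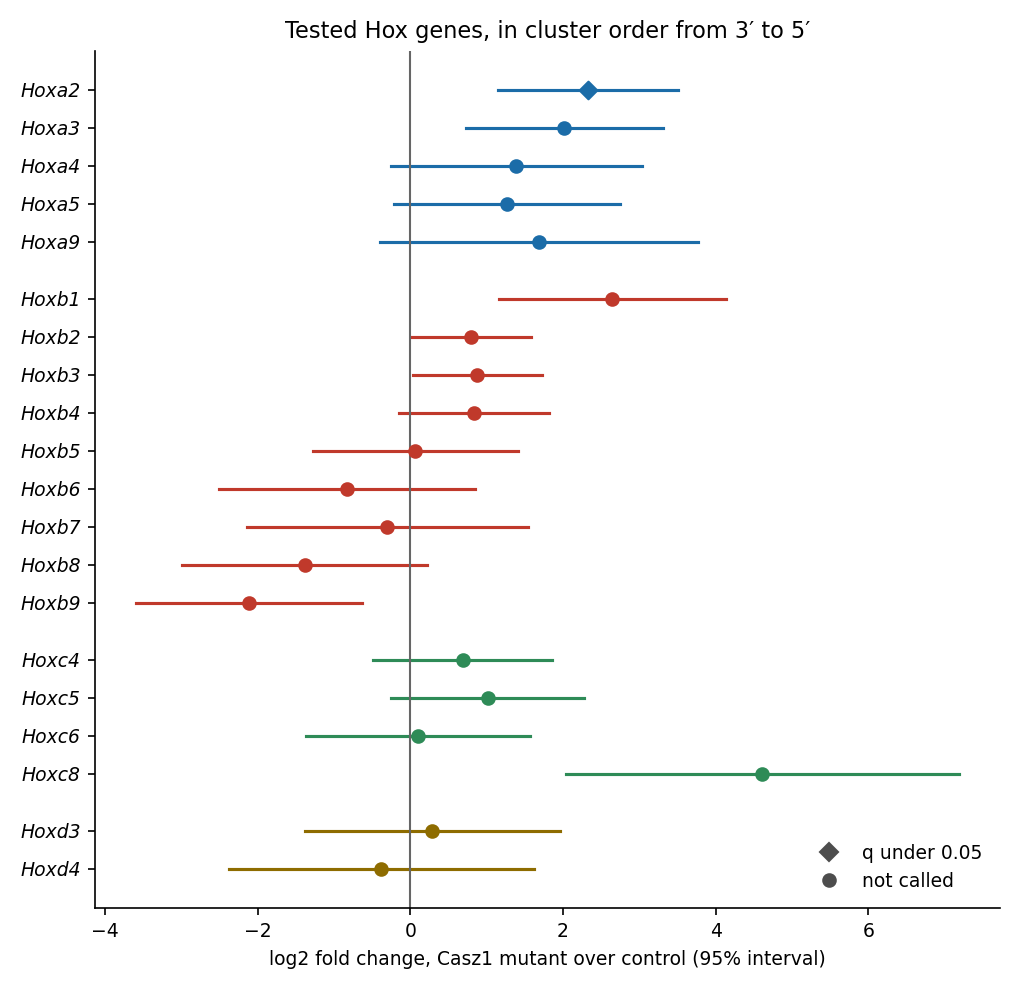
Log2 fold change (mutant over control) of the 20 tested Hox genes with 95% intervals from the implied SE, listed from 3′ to 5′ within HoxA (blue), HoxB (red), HoxC (green) and HoxD (brown), with a diamond for the called gene. Hoxa2 is the called gene at 2.32, and HoxB runs from 2.64 at Hoxb1 to -2.11 at Hoxb9.

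HoxC genes were below 1 FPKM throughout. Hoxc4, the 3′-most and highest member, read 0.615 FPKM in mutant and 0.383 FPKM in control hearts (log2 0.68, SE 0.597, q = 1.00). Hoxc5 and Hoxc6, both of cervical to thoracic level, did not pass, at log2 values of 1.01 and 0.10. Hoxc8, a thoracic gene, read 0.189 FPKM in mutant and 0.00775 FPKM in control hearts (log2 4.61, SE 1.31), with an unadjusted p of 0.000450 and q = 0.0872 in the authors' deposited table. That fold rests on a control value near 0, and with 0.1 or 1 FPKM added to both genotypes the log2 value was 1.42 or 0.24. Hoxc9 to Hoxc13 were not tested, with at most 0.0751 FPKM.

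HoxD was the least expressed cluster. Hoxd3 read 0.249 FPKM in mutant and 0.204 FPKM in control hearts (log2 0.29, SE 0.852), and Hoxd4 read 0.159 FPKM in mutant and 0.207 FPKM in control hearts (log2 -0.38, SE 1.02). Both act in the neck region of the axis. They share 1 locus, on chromosome 2 from 74710044 to 74748271, and 62.3% of the Hoxd3 exon bases lie under another same-strand model, so the split between them is uncertain. The other 7 HoxD genes were not tested. Among them Hoxd9 read 0.0816 FPKM in mutant and 0.00884 FPKM in control hearts, and Hoxd12 was listed at 0 in both.

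Read by paralog group across clusters, the anterior groups 1 to 3 had 6 tested members, all above 0, with a median log2 of 1.44. Of all tested entries with a finite fold, 45.3% lay above 0. Hoxb1, 1 of the 6, passed about 0.1 FPKM only in mutant hearts and could hardly be tested without reading higher. The sum over groups 1 to 3 was 15.8 FPKM in mutant and 7.54 FPKM in control hearts. In the central groups 4 to 8, 8 of 12 tested members lay above 0, with a median of 0.39 and sums of 6.94 FPKM in mutant and 4.04 FPKM in control hearts. In the posterior groups 9 to 13, 14 of 16 members were not tested. Their sum was 0.548 FPKM in mutant and 0.638 FPKM in control hearts.

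Paralogs of groups 8 and 9 had values in different directions. In group 9, Hoxb9 read lower in mutant hearts, while Hoxa9, Hoxc9 and Hoxd9 read higher there, each at no more than 0.130 FPKM. In group 8, Hoxb8 and Hoxc8 had opposite signs. Hoxa9 and Hoxc8 passed about 0.1 FPKM only in mutant hearts and Hoxb8 only in control hearts. Such genes could hardly be tested without differing in that direction. Since none of these genes was called, the contrast between paralogs is one of values. Over the 18 genes that were not tested, 10 read higher in mutant hearts, 5 lower and 3 were listed at 0 in both, with no value over 0.0816 FPKM.

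**Figure D3:**
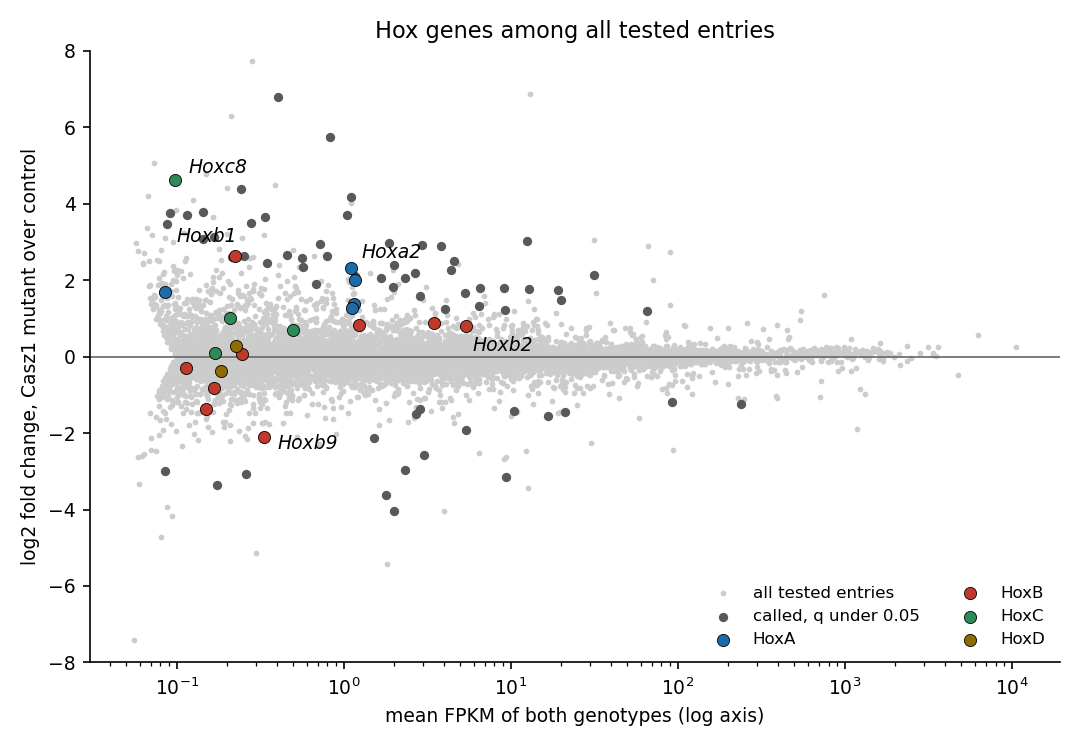
Log2 fold change (mutant over control) against mean FPKM (log axis) for all tested entries in grey, called entries in dark grey and tested Hox genes coloured by cluster; 2 entries lie beyond the plotted range. Most Hox genes sit in the low range where fold changes of all entries spread widely, and Hoxa2 is the called Hox gene at a mean near 1 FPKM.

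The TALE cofactors had 0 calls among 9 tested members (Cuffdiff, with 1 at an unadjusted p under 0.05), and together they summed to 140.1 FPKM in mutant and 137 FPKM in control hearts. Pbx2 was the highest, at 52.8 FPKM in mutant and 55.2 FPKM in control hearts, followed by Meis1 at 17.3 FPKM in mutant and 16.9 FPKM in control hearts. Pknox2, a PREP family member, read 4.75 FPKM in mutant and 2.64 FPKM in control hearts (log2 0.85, SE 0.387), with an unadjusted p of 0.0287 and q = 1.00 in the authors' deposited table. The cofactor median was 0.07.

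Retinoic acid genes gave 1 call, a rise, among 18 tested members, where 0.305% of all tested entries rose. Crabp2, which carries retinoic acid to its receptors, rose to 20.0 FPKM in mutant hearts, against 5.86 FPKM in control hearts (log2 1.77, SE 0.407, q = 0.00547 by the authors' Cuffdiff test). Crabp1 (log2 0.74), the vitamin A receptor Stra6 (log2 1.62) and the degrading enzyme Cyp26c1 (log2 2.75) had an unadjusted p under 0.05 and were not called. Cyp26c1 passed about 0.1 FPKM only in mutant hearts, so it could hardly be tested without reading higher. The synthetic enzyme Aldh1a2 read 9.38 FPKM in mutant and 10.6 FPKM in control hearts, and the receptor Rarb read 6.14 FPKM in mutant and 6.02 FPKM in control hearts. The list median was 0.33, and 16 of the 18 lay above 0.

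Caudal and hindbrain patterning genes, several of which act upstream of Hox genes, had no calls. Of 13 found, 6 were tested and 0 called, with 0 at an unadjusted p under 0.05. Cdx2 and Cdx4, caudal activators of Hox clusters, were listed at 0 in both genotypes. Zfp703, the highest of the list, read 6.87 FPKM in mutant and 6.33 FPKM in control hearts, and Gdf11, a signal that promotes posterior Hox expression, read 4.76 FPKM in mutant and 4.99 FPKM in control hearts.

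Genes beside the clusters had small differences. Among 11 tested flanking genes there were 0 calls and 0 passed p under 0.05 without adjustment, with log2 fold changes between -0.28 and 0.19 and a median of 0.01. Skap2, next to HoxA, read 7.02 FPKM in mutant and 6.17 FPKM in control hearts. Mtx2, next to HoxD, read 89.4 FPKM in mutant and 88.2 FPKM in control hearts. Evx1 and Evx2, homeobox genes at the 5′ ends of HoxA and HoxD, were not tested, at no more than 0.0135 FPKM.

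Some markers of tissues that border the heart and express anterior Hox genes rose in mutant hearts, and most did not pass. Of all tested entries 0.305% rose and 0.117% fell. Of 10 foregut and epithelial markers 6 rose and 0 fell, with a median log2 of 2.23, and the list summed to 85.1 FPKM in mutant and 43.2 FPKM in control hearts. The keratin Krt18 gave most of that sum, at 65.2 FPKM in mutant and 39.0 FPKM in control hearts. Shh read 1.28 FPKM in mutant and 0.166 FPKM in control hearts, and Epcam read 4.42 FPKM in mutant and 0.971 FPKM in control hearts. Of 9 pharyngeal arch markers 3 rose, Pax1, Pax9 and Tbx1, with a median of 1.98 and sums of 23.6 FPKM in mutant and 14.3 FPKM in control hearts. Of 10 splanchnic mesenchyme markers 1 rose, Foxf1, with a median of 1.18 and sums of 61.8 FPKM in mutant and 39.1 FPKM in control hearts. None of the markers in these 3 lists was listed at 0. Pax1, Pax9 and the splanchnic marker Nkx6-1 stood under 0.1 FPKM in control hearts, so they could hardly be tested without reading higher.

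Neural and somite markers gave no calls. Among 7 tested neural tube and neuron markers there were 0 calls. At an unadjusted Cuffdiff p under 0.05, 3 were higher in mutant hearts and 0 lower. Of all tested entries 1.99% were higher and 1.18% lower at that level. The median of the 7 was 1.32, and the list summed to 20.9 FPKM in mutant and 15.9 FPKM in control hearts. Nkx6-1, Neurog1 and Neurog2 passed about 0.1 FPKM only in mutant hearts, so they could hardly be tested without reading higher. Pax6 read 0.457 FPKM in mutant and 0.122 FPKM in control hearts. Neural crest and glial markers had 0 calls among 6, with a median of -0.08 and sums of 18.6 FPKM in mutant and 21.0 FPKM in control hearts. At an unadjusted Cuffdiff p under 0.05, 2 were higher in mutant hearts, Tfap2a and Tfap2b, and 0 lower. The other 4 tested members lay below 0. Tfap2b passed about 0.1 FPKM only in mutant hearts, so it could hardly be tested without reading higher. Sox10 read 0.331 FPKM in mutant and 0.344 FPKM in control hearts. Somite and limb markers had 0 calls among 8, with 3 at an unadjusted p under 0.05, Myf5, Myog and Lbx1. These 3 read higher in mutant hearts and passed about 0.1 FPKM only there, so they too could hardly be tested without differing. The list summed to 6.98 FPKM in mutant and 5.67 FPKM in control hearts, with Myf5 at 0 among controls. The part of these tissues in the Hox differences was not tested, and with pooled values it is unknown whether the same hearts carried both.

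**Figure D4:**
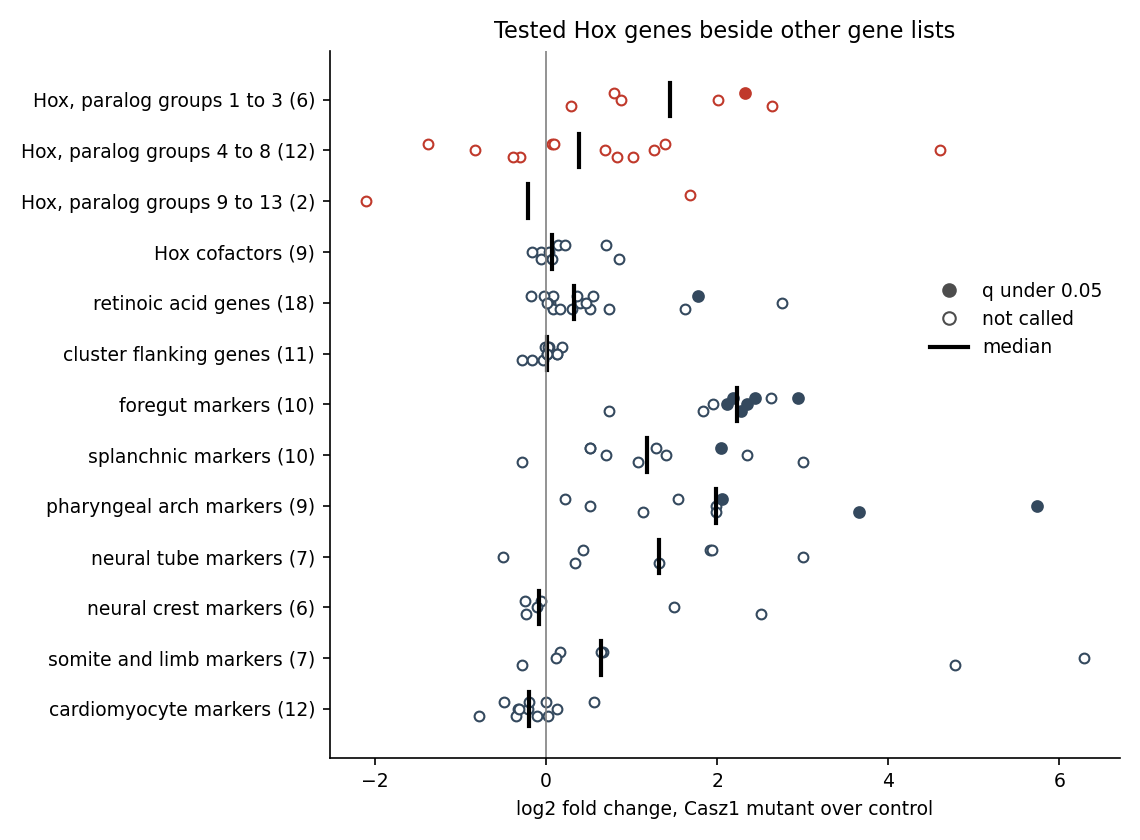
Log2 fold change (mutant over control) of tested members of the Hox genes by paralog group (red) and of cofactor, retinoic acid, flanking and marker lists (dark), with filled points at q under 0.05, black bars at medians and the number plotted in brackets. The anterior Hox genes have a median of 1.44. Splanchnic markers at 1.18 and neural tube markers at 1.32 lie below it. Pharyngeal arch markers at 1.98 and foregut markers at 2.23 lie above it, while cofactors and flanking genes sit at 0.07 and 0.01. Some medians include genes that passed about 0.1 FPKM only in mutant hearts, among them Hoxb1, Nkx6-1, Neurog1, Neurog2, Pax1 and Pax9. The order of the medians was not tested.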

How the data were processed

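The deposited data are a single Cuffdiff table for 3 mutant and 3 control hearts. The submitters' processing notes name TopHat2 2.0.8, Bowtie2 2.1.0.0, Cufflinks 2.1.1, Cuffdiff and the mm10 build. FPKM values were computed by the authors, 1 pooled value per genotype, per the file headers. The log2 fold change and test statistic were deposited beside them as scores, with infinite folds written as a placeholder. Each tested entry also carries the p-value and q-value that the authors deposited. Library normalisation and dispersion settings are not stated there. The table has 0 columns per heart, so depth is unknown and no test over hearts was possible.

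The deposited p matched the normal tail of the test statistic within 2.82e-06 and q matched a Benjamini-Hochberg adjustment over the 15387 tested entries. The SE was taken as the log2 fold change divided by the test statistic, whose sign is opposite, and 95% intervals assume a normal distribution. Entries at or under about 0.1 FPKM were not tested. Identifiers were named from RefSeq and GENCODE tables of GRCm38 (99.3% of entries). Each Hox gene had 1 row. Starts were moved to counting from 1. Named singly were Hox genes that were called, had an unadjusted p under 0.05 or reached 1 FPKM, and the highest of each cluster. In other lists the rule took up to 4 called genes, or those with an unadjusted p under 0.05, and the 2 highest. Any other gene named, among them Skap2, Sox10, Rarb and Aldh1a2, was chosen after its values were seen. The genes, lists and alternatives were chosen with earlier results of these data known. The adjustment was tested on simulated data. Software was scipy 1.17.1, pandas 2.3.3 and numpy 2.4.6 under Python 3.11.15, and matplotlib 3.10.9 for plots.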

Additional observations from a re-analysis of the deposited data

How the results depend on the processing

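The call of 1 Hox gene depended on the threshold: 0 were called at q under 0.01 and 3 at q under 0.10 (Hoxa2, Hoxb1 and Hoxc8, where 0.377% of all tested entries were called higher). With the adjustment of the authors' Cuffdiff p redone over entries with at least 1 FPKM, the count was again 1 (Hoxa2 q = 0.0333). The filters on low FPKM, centring and summing rows per gene could not change the count. They leave the authors' q as it is, Hoxa2 passes the filters and each Hox gene had 1 row. Pseudocounts change folds and not the authors' test. The median log2 fold change of 0.81 became 0.69 with a pseudocount of 0.1 FPKM and 0.20 with 1 FPKM, since most of these genes are low. It was 1.27 over the 7 Hox genes that reached 1 FPKM, of which 7 lay above 0, under the filter and under the adjustment alike. Left out after the data were seen, HoxB gave a median of 1.27 over the other 11 genes, of which 10 lay above 0, and the 5 tested genes with shared loci gave 0.80 over 15. No log2 fold change of a gene named by rule changed sign under these settings, of which only centring could change a sign. No paired analysis was possible because the table holds no value per heart, and for the same reason leaving out each replicate was not run. Levels near 0.1 FPKM limit what can be said of the 5′ genes.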

Other observations

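Other homeobox genes of embryonic patterning gave 0 calls among 5 tested members of 12 (Cuffdiff), with 4 at an unadjusted p under 0.05. At that level 1.99% of all tested entries were higher and 1.18% lower in mutant hearts. The 4 were the Dlx genes of pharyngeal arch mesenchyme, each higher in mutant hearts by value. Dlx1 and Dlx6 stood under 0.1 FPKM in control hearts, so they could hardly be tested without reading higher. Dlx2 read 1.30 FPKM in mutant and 0.408 FPKM in control hearts (log2 1.67, SE 0.578, q = 0.345). Dlx5 read 1.16 FPKM in mutant and 0.294 FPKM in control hearts, Dlx6 read 0.600 FPKM in mutant and 0.0664 FPKM in control hearts, and Dlx1 read 0.362 FPKM in mutant and 0.0391 FPKM in control hearts. Meox1, a somite gene, read 2.78 FPKM in mutant and 3.37 FPKM in control hearts.

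Of 20 noncoding RNAs looked up for the Hox clusters 10 were found and 0 were tested. Their FPKM summed to 0.0698 in mutant and 0.0933 in control hearts, and 8 were listed at 0 in mutant and 7 in control hearts. Mir10a, Mir10b and the Mir196 genes were among those at 0 in both. Since the read depth is unknown, a value of 0 does not show that they were absent. Markers of resident heart cells and of liver, a neighbouring tissue, had 0 calls: epicardial markers had a median log2 of -0.09 (8 tested), endothelial markers -0.18 (7 tested), liver markers -0.19 (6 tested) and cardiomyocyte markers -0.21 (12 tested). In these 4 lists 1 cardiomyocyte and 1 epicardial marker had an unadjusted p under 0.05, Nkx2-5 and Msln, both lower.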
